A study of Homo sapiens with 96 samples.

Results

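The MCM genes described here are MCM2, MCM3, MCM4, MCM5, MCM6, MCM7 and MCM10, chosen by name, in MDA-MB-231 cells, an established human breast cancer line, after exposure to the MEK inhibitor U0126. The array annotation assigned 12 of 19415 probe sets with 1 symbol to these 7 genes, of 11940 genes in all: 4 probe sets to MCM4, 2 each to MCM5 and MCM7, and 1 each to the other genes. The series holds 96 Affymetrix arrays in 3 series of 32, named 2D03 and 2D04 (2D culture) and 3D04 (3D culture). In every group the cells had been brought to 80% confluence and then kept 24 h in low serum. Control cells received nothing further. EGF cells received 10 ng/ml EGF, the ligand of the EGF receptor, at 0 h. DMSO-EGF cells had 30 min of the vehicle DMSO before the same EGF, and U0126 cells had 30 min of 10 uM U0126 before it. After 0 h, each arm had 1 array per series at 0.5, 1, 4, 8, 12, 24 and 48 h, and at 0 h each series had 2 control arrays, 1 DMSO array and 1 U0126 array, all without EGF. The labels do not say whether repeats are separate cultures, so p-values measure the spread between these arrays, which may be technical, and 3D culture stands for 1 series. The line is the only cell model, and what the 3D culture was grown in is not stated in the labels.

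MCM2 to MCM7 encode the subunits of the ring that unwinds DNA ahead of the replication fork. The ring is loaded onto replication origins in G1 by the origin recognition complex with CDC6 and CDT1, and is switched on at the start of S phase when CDC45 and the GINS complex join it. MCM10 is not part of the ring but is needed for its activation. In cycling cells these genes are known to be transcribed by E2F factors once the retinoblastoma protein (RB) is phosphorylated, a step to which mitogen signals through MEK and ERK contribute in G1.

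Because the data concern a coordinated change of these genes, their promoters are shown first, with the letters that resemble an E2F site. RefSeq promoter windows of GRCh38.p14, each running from 250 bases before to 50 bases after a transcription start, were on hand for 5 of the 7 genes. The stretches below are on the strand of the gene, 5′ to 3′, and capitals mark exact matches to the octamers TTTCGCGC, TTTGGCGC, TTTCCCGC and TTTGCCGC, searched on both strands, so that 2 matches on opposite strands can overlap.
MCM2 (chr3:127598351-127598425, plus strand): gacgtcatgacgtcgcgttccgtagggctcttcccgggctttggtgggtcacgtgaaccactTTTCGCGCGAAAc
MCM3 (chr6:52284738-52284802, minus strand): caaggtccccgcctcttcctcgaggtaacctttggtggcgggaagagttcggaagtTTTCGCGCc
MCM6 (chr2:135876509-135876608, minus strand): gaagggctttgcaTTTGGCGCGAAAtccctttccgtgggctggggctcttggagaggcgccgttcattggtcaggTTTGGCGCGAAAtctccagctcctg
MCM7 (chr7:100101393-100101457, minus strand): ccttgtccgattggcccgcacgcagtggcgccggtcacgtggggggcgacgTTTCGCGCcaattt
MCM10 (chr10:13161498-13161562, plus strand): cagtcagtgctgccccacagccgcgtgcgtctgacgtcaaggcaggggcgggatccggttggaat

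At least 1 match lay in the promoter windows of 4 of these 5 genes. Over all RefSeq windows of the same length, 1164 of 35116 held a match (3.31%). That share is counted by window and not by gene, and MCM7 had 3 windows, so the 2 counts are not like measures. In MCM2 the overlapping matches on opposite strands began at bases 3 and 7 from the annotated start, counted from 1 at the first transcribed base. Bases before the start are counted with a minus sign. In MCM3 the matches began at -4 and, outside the stretch shown, at -174, and in MCM7 at -9 and, outside it, at -187. MCM6 had 2 overlapping pairs, the first beginning at -152 and -148 and the second at -90 and -86. No match to these letters lay in the MCM10 window or in the 2 further windows of MCM7. A match describes the sequence and is not evidence of a bound factor.

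All values below are the deposited array values, presumed to be log2 and centred per probe set on an unknown reference, so levels are not comparable between genes and only differences between arrays carry meaning. For a gene with several probe sets, the one with the largest SD over the 96 arrays was read. Within a gene the probe sets rose and fell together over the arrays, with Pearson r between 0.87 and 0.96 for MCM4 and of 0.98 for both MCM5 and MCM7. Differences were tested with limma over all 11940 genes, and a gene was called at a Benjamini-Hochberg adjusted p under 0.05. Array medians lay between -0.06 and 0.03. The number of arrays limits the precision. The U0126 arrays of series 2D03 at 8 and 12 h stood apart in RNA quality: their actin 5′ probe set minus 3′ probe set read -1.26 and -1.08, against -0.36 to 0.31 on the other 94. The target check was DUSP6, an ERK phosphatase gene that ERK itself induces: its U0126 minus vehicle difference at 4 h was -3.57, -3.32 and -3.11 in series 2D03, 2D04 and 3D04.

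The first question was whether MCM transcripts changed under U0126, compared with DMSO-EGF, and when. All 7 genes were lower with U0126 in both cultures in the late window (24 and 48 h), by 2.13-fold (MCM6) to 6.05-fold (MCM10) in 2D and by 2.23-fold (MCM6) to 15.1-fold (MCM10) in 3D. In the early window (0.5 and 1 h) 0 of 7 passed in 2D, where 0.0168% of all genes were called lower, and 0 of 7 in 3D (0.293%); none of the 7 had an unadjusted p under 0.05 there (0.888% and 4.82% of all genes did). The U0126 values moved away from vehicle between 4 and 12 h, and MCM10 showed the largest difference of the 7 in the late window of each culture. In bulk RNA, fewer cells in a cycle phase that holds these transcripts and less transcript per cell cannot be told apart.

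**Figure D1:**
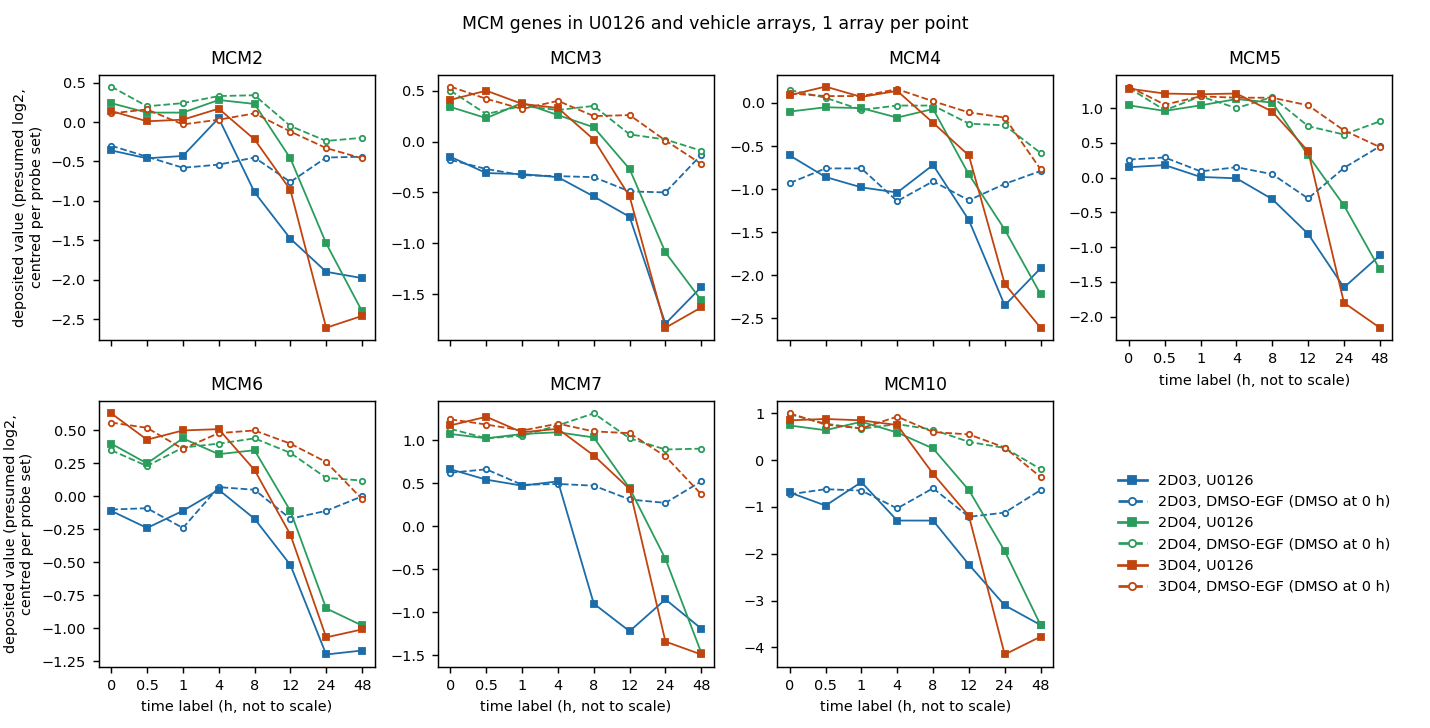
Deposited value (presumed log2, centred per probe set) of each MCM gene against the time label, with 1 array per point. Filled squares and solid lines are U0126 arrays, open circles and dashed lines are vehicle arrays (DMSO at 0 h, DMSO-EGF later), and colours are the 3 series. In each panel the solid lines leave the dashed ones after 4 h, and at 24 and 48 h every U0126 array lies below every DMSO-EGF array of its series.

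The late window was read gene by gene along the ring. For MCM2, the U0126 arrays read -1.90 and -1.98 at 24 and 48 h in series 2D03 and -1.54 and -2.40 in 2D04, against -0.45 and -0.44, and -0.24 and -0.20, with DMSO-EGF. In 3D they read -2.61 and -2.46 against -0.33 and -0.46. The arms did not overlap in any series. The fitted difference for MCM2 was -1.62 (SE 0.31, adjusted p = 0.00021) over 4 arrays per arm in 2D, and -2.14 (SE 0.15, adjusted p = 4e-09) over 2 arrays per arm in 3D. The SEs of the cultures are not like measures, here and for each gene below. In 2D they hold the level difference between 2D03 and 2D04, while in 3D they rest on a single series. With a term for the series (a replicate block), the 2D SE for MCM2 was 0.154 (limma adjusted p = 9.6e-11). Over all members the 2D SEs then ran from 0.081 to 0.19. MCM6, which sits beside MCM2 in the ring, had the smallest change. Its U0126 arrays read -1.20, -1.17, -0.85 and -0.98 in 2D (series 2D03, then 2D04, each at 24 and 48 h) against -0.11, 0.00, 0.14 and 0.12, a difference of -1.09 (SE 0.21, adjusted p = 0.00029). In 3D MCM6 read -1.07 and -1.01 against 0.26 and -0.02 (-1.16, SE 0.15, adjusted p = 3.6e-06). Again no U0126 array reached a DMSO-EGF array.

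MCM4 and MCM7, together with MCM6, form the core of the ring that carries helicase activity in vitro. For MCM4 the U0126 arrays read -2.35 and -1.92 in series 2D03 and -1.47 and -2.22 in 2D04, against -0.94 and -0.79, and -0.26 and -0.58. In 3D they read -2.10 and -2.61 against -0.17 and -0.77. The arms were separate in 2D and in 3D. MCM4 levels of 2D03 lay below those of 2D04 on most vehicle arrays, and the fitted difference was -1.35 (SE 0.38, adjusted p = 0.012) in 2D and -1.89 (SE 0.09, adjusted p = 3.2e-11) in 3D. The 4 MCM4 probe sets gave 2D differences between -1.34 and -1.49 and 3D differences between -1.71 and -2.07. MCM7 read -0.85, -1.19, -0.38 and -1.47 with U0126 in 2D against 0.27, 0.52, 0.89 and 0.90 with DMSO-EGF. In 3D it read -1.34 and -1.49 against 0.81 and 0.37. These amounted to -1.62 (SE 0.33, adjusted p = 0.0005) in 2D and -2.01 (SE 0.12, adjusted p = 2.5e-10) in 3D, and the second MCM7 probe set gave -1.39 and -1.64.

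MCM3 and MCM5 are the remaining ring subunits, and MCM5 and MCM2 flank the gate through which DNA enters. MCM3 read -1.79, -1.43, -1.09 and -1.56 with U0126 in 2D against -0.50, -0.13, 0.02 and -0.09 (-1.29, SE 0.27, adjusted p = 0.00066), and -1.83 and -1.63 against 0.01 and -0.22 in 3D (-1.63, SE 0.15, adjusted p = 1.1e-07). MCM5 read -1.58, -1.12, -0.40 and -1.32 with U0126 in 2D against 0.14, 0.45, 0.62 and 0.81 (-1.61, SE 0.43, adjusted p = 0.009). In 3D its U0126 arrays fell to -1.80 and -2.16 against 0.68 and 0.44 (-2.54, SE 0.12, adjusted p = 1.3e-11). Both genes were lower on each U0126 array than on any DMSO-EGF array of either culture, and the second MCM5 probe set gave -1.63 in 2D and -2.19 in 3D. MCM10, the activation factor outside the ring, read -3.10, -3.52, -1.94 and -3.52 with U0126 in 2D against -1.12, -0.64, 0.26 and -0.19 (-2.60, SE 0.66, adjusted p = 0.0056). In 3D MCM10 read -4.15 and -3.77 against 0.27 and -0.36 (-3.92, SE 0.31, adjusted p = 1.1e-08), and the -4.15 was its lowest value on any array.

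Against the background, 7 of 7 members were called lower in the late 2D window where 5.94% of all genes tested were, and 7 of 7 in the late 3D window where 18.1% were. Every U0126 array lay below every DMSO-EGF array of the late 2D window for 7 of 7 members, a pattern shown by 5.36% of all genes. The median difference over all genes tested was 0.01 in 2D and 0.03 in 3D, against -1.61 and -2.01 over the members. In the 2D window, MCM4 lost its call without the U0126 24 h array of series 2D03 (adjusted p = 0.082), without the DMSO-EGF 24 h array of 2D04 (adjusted p = 0.067) or the U0126 48 h array of 2D04 (adjusted p = 0.055), and MCM5 without the first of these (adjusted p = 0.073). With array weights MCM4 also missed the threshold (adjusted p = 0.062). Leaving out 1 array leaves the series unequally represented in the arms. With the series as a replicate block, 7 of 7 were called (12.2% of all genes lower), and 7 of 7 again whichever late array was left out. Each 2D series alone, with its 2 late times as repeats, also gave 7 of 7. Compared with untreated control cells in place of DMSO-EGF, the late 2D differences ran from -1.12 to -2.61, again 7 of 7 called (6.52% of all genes lower), or 5 without the U0126 24 h array of 2D03 and 6 without the control 24 h array of 2D04.

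**Figure D2:**
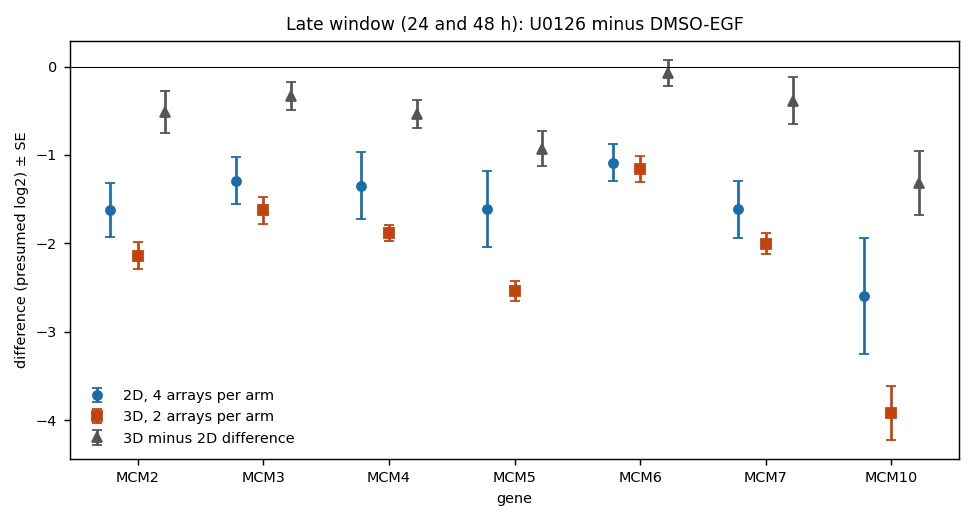
Late-window difference of U0126 from DMSO-EGF (presumed log2, fitted value ± SE) for each gene, in 2D (circles, 4 arrays per arm) and 3D (squares, 2 arrays per arm), with the 3D minus 2D difference (triangles). All circles and squares lie below -1, MCM10 is lowest at -2.60 and -3.92, and the triangles run from -0.07 (MCM6) to -1.32 (MCM10). The 2D bars (fit without the block) hold the level difference between the 2D series and the 3D bars hold none, so their lengths are not like measures.

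Taken apart by time, the 2D differences at 24 h were -1.04 (MCM6) to -2.09 (MCM10). Here 0 of 7 were called without the block (1.16% of all genes lower), although 7 of 7 had an unadjusted p under 0.05 (11.1% of all genes) and both U0126 arrays lay below both DMSO-EGF arrays for 7 of 7 (13.9% of all genes). With the replicate block 7 of 7 were called at 24 h (5.44% of all genes lower; adjusted p between 3.2e-08 and 0.0014). At 48 h the differences were -1.14 (MCM6) to -3.11 (MCM10), and 5 of 7 were called (3.84% of all genes lower), the exceptions being MCM4 (adjusted p = 0.12) and MCM5 (adjusted p = 0.055). Without any 1 of the 4 arrays, this count dropped to between 0 and 2, while with the block it was 7 of 7 (8.98% of all genes lower), also after leaving out each of the 4. The 48 h effect minus the 24 h effect was called for 0 of 7 (0.168% of all genes lower; 0 of 7 with an unadjusted p under 0.05, where 2.94% of all genes were, and 0 with the block), with values between -0.08 and -1.02.

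The onset was followed at single times in each series. At 0, 0.5, 1 and 4 h the median difference over the 7 genes lay between -0.21 and 0.09 in every series. The -0.21 was that of 2D04 at 0 h, before EGF, with 6 of 7 genes lower. It was larger in size than the 8 h median of that series (-0.11). At 4 h the U0126 array was lower in all 3 series for 2 of 7 genes, near the share of all genes (18.1%). At 8 h this held for 6 of 7 (17% of all genes), with MCM4 in 2D03 (0.19) the exception, and at 12 h for 7 of 7 (21.7% of all genes). Median differences at 8 h were -0.36, -0.11 and -0.28 in series 2D03, 2D04 and 3D04. They reached -0.51, -0.44 and -0.69 at 12 h, -1.41, -1.21 and -2.15 at 24 h, and -1.54, -2.13 and -1.86 at 48 h. The 2D03 values at 8 and 12 h rest on the U0126 arrays of low RNA quality. MCM10 had the largest difference in 2D04 and 3D04: it stood at -0.40 and -0.89 at 8 h and at -1.03 and -1.74 at 12 h.

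**Figure D3:**
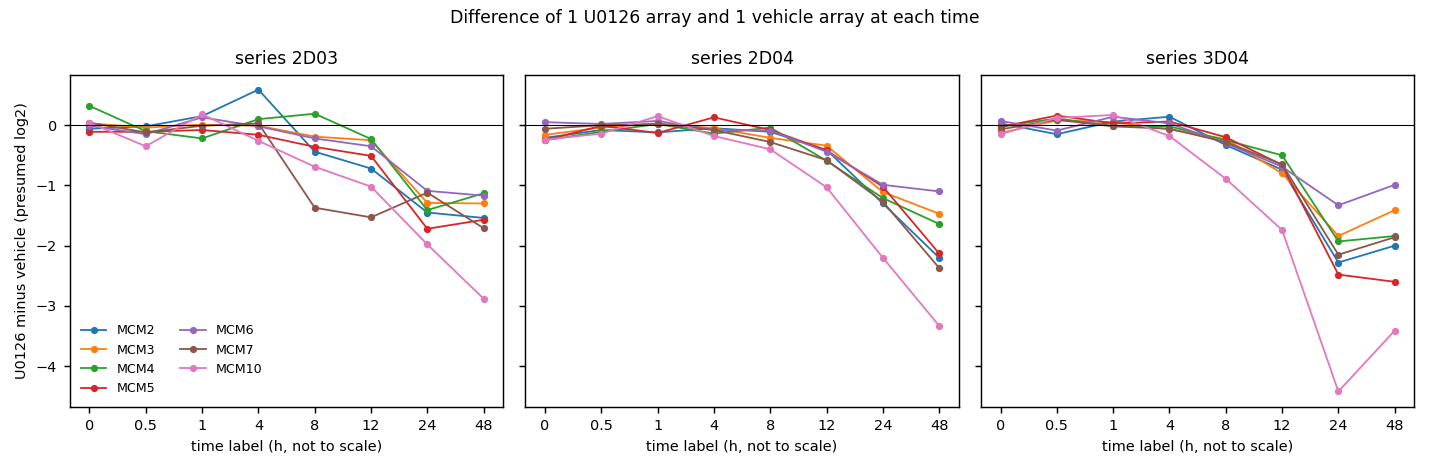
Difference of the U0126 array from the vehicle array (presumed log2; DMSO at 0 h, DMSO-EGF later) against the time label in each series, 1 line per gene, each point 1 array minus 1 array. Apart from MCM2 in 2D03 at 4 h (0.59), lines lie between -0.35 and 0.32 up to 4 h. They lie below 0 for 7 of 7 genes at 12, 24 and 48 h. In 2D03, MCM7 (brown) is already at -1.37 at 8 h, on an array of low RNA quality.

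In the middle window (4, 8 and 12 h) 0 of 7 were called in 2D without the block (5.12% of all genes lower), with differences of -0.12 (MCM4) to -0.64 (MCM7) and 1 of 7, MCM7, at an unadjusted p under 0.05 (18.6% of all genes). With the block MCM7 (-0.64, SE 0.15, adjusted p = 0.002), MCM10 (-0.60, SE 0.16, adjusted p = 0.0052) and MCM6 (-0.20, SE 0.07, adjusted p = 0.029) were called, where 12.4% of all genes were lower. Those calls moved with the 2 arrays of low RNA quality. MCM7 read -0.90 and -1.22 on the 2D03 U0126 arrays of 8 and 12 h, lower than or close to its -0.85 and -1.19 at 24 and 48 h in that series, whereas in 2D04 it read 1.03 and 0.44. Without these 2 arrays, and with the block, MCM7 stood at -0.20 (adjusted p = 0.29), MCM10 at -0.52 (adjusted p = 0.075) and MCM6 at -0.18 (adjusted p = 0.17), so 0 of 7 were called. At 12 h alone the block gave MCM7, MCM6 and MCM10 (3 of 7, 6.89% of all genes lower), at 8 h 1 of 7 (4.62%), and without those arrays 0 of 7 at both times. That left 1 U0126 array at 12 h, and there MCM6 stayed at -0.39 (SE 0.14 in place of 0.12, adjusted p = 0.18) and MCM10 was at -0.89 (-1.02 with the arrays, adjusted p = 0.21), while MCM7 went from -1.05 to -0.47 (adjusted p = 0.27).

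The 3D series, whose middle arrays were not among those of low RNA quality, called 3 of 7 in the middle window (8.14% of all genes lower): MCM10 at -0.94 (SE 0.25, adjusted p = 0.015), MCM7 at -0.33 (SE 0.10, adjusted p = 0.024) and MCM4 at -0.26 (SE 0.08, adjusted p = 0.028). The other 4 had differences of -0.27 to -0.37 with adjusted p between 0.055 and 0.11. Here the 3 times serve as repeats although the effect was not level over them. For MCM10, U0126 read 0.75, -0.29 and -1.19 at 4, 8 and 12 h against 0.93, 0.60 and 0.55 with DMSO-EGF, so that the gap opened from one time to the next. The count was 7 of 7 without the 4 h arrays and 0 of 7 without those of 8 or of 12 h. The middle 3D effect minus the middle 2D effect was called for 0 of 7 (3.43% of all genes in either direction; 0 of 7 with an unadjusted p under 0.05, where 17.4% of all genes were).

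The second question was what EGF, the vehicle and time did to the same genes. In 2D, neither EGF nor DMSO moved them past the test. EGF minus control in the late 2D window ran from -0.11 (MCM5) to 0.19 (MCM10), and DMSO-EGF minus EGF from -0.21 (MCM10) to 0.03 (MCM5). In both comparisons 0 of 7 members and 0 of 11940 genes were called by limma, and 0 of 7 had an unadjusted p under 0.05 (0.461% and 0.838% of all genes did). The middle window gave 0 of 7 as well, with differences between -0.09 and 0.08. In the 3D series, single differences of the EGF from the control array lay between -0.38 (MCM10 at 48 h) and 0.17 over 49 pairs of gene and time. Those of the DMSO-EGF from the EGF array lay between -0.17 and 0.54, and at 48 h they were above 0 for 7 of 7 genes (0.09 to 0.54, the highest for MCM10). Neither was tested in 3D. U0126 against DMSO at 0 h, after 30 min of pre-treatment and before EGF, gave differences of -0.18 to 0.04 in 2D, with 0 of 7 and 0 of 11940 called and 0 of 7 at an unadjusted p under 0.05 (0.704% of all genes).

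Over 48 h the untreated cells of the 3 series drifted differently. From 0 h to 48 h the median change over the 7 genes was -0.03 in 2D03 (range -0.25 to 0.30), -0.46 in 2D04 (-0.85 to -0.17) and -0.84 in 3D04 (-1.38 to -0.70). In 3D04, for instance, control MCM5 went from 1.27 and 1.21 at 0 h to 0.84 at 24 h and 0.39 at 48 h, and control MCM10 from 0.97 and 0.74 to 0.37 and -0.52. Series 2D03 had MCM5 at 0.12 and 0.16 at 0 h and 0.44 at 48 h. The difference between series was not tested, since each has 1 array at 48 h. Over both 2D series the change to 48 h was called for 0 of 7 members (2.76% of all genes lower; 0 of 7 with an unadjusted p under 0.05, where 15.6% of all genes were). DMSO-EGF cells drifted much as controls did (medians 0.09, -0.59 and -0.87 at 48 h against DMSO at 0 h), while U0126 cells changed by medians of -1.31, -2.36 and -2.66. In 2D, U0126 at 48 h minus U0126 at 0 h was called for 7 of 7 (9.2% of all genes lower), from -1.22 (MCM6) to -3.55 (MCM10), or for 2 of 7 without the 0 h array of 2D04, 6 and 5 without the 48 h array of 2D03 and of 2D04, and 7 of 7 with the block (15.8% of all genes lower). In 3D the vehicle arrays came down between 24 and 48 h for 7 of 7 genes while 4 of the 7 U0126 values came up, and the median difference was -2.15 at 24 h and -1.86 at 48 h.

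The third question was whether the U0126 effect differed between cultures. The late effect was larger in 3D for MCM10 (3D minus 2D -1.32, SE 0.36, adjusted p = 0.011), MCM5 (-0.93, SE 0.20, adjusted p = 0.00093) and MCM4 (-0.54, SE 0.16, adjusted p = 0.023), 3 of 7 where 6.19% of all genes were called lower. The other 4 had differences of -0.07 (MCM6, SE 0.15) to -0.52 (MCM2, SE 0.24), which did not pass. For MCM10 the gap lay mostly at 24 h, where U0126 minus DMSO-EGF was -4.42 in 3D04 against -1.98 in 2D03 and -2.2 in 2D04. At 48 h it was -3.41 against -2.88 and -3.33. MCM5 and MCM4 had larger differences in 3D04 than in either 2D series at both times. The median over the members at 48 h was -1.86 in 3D04, between -1.54 in 2D03 and -2.13 in 2D04. Under quantile normalization 0 of 7 were called, MCM10 moving to -0.86 (adjusted p = 0.26), MCM5 to -0.56 (adjusted p = 0.073) and MCM4 to -0.07 (adjusted p = 0.92). Leaving out the arrays of 1 series and time left between 1 and 4 called: MCM10 lost its call without the 24 h arrays of 2D03, 2D04 or 3D04, MCM4 without those of 2D03 at 48 h, of 2D04 at 24 h or of 3D04 at 24 or 48 h, and MCM5 without those of 3D04 at 48 h. MCM4 also lost its call with array weights (adjusted p = 0.1) and with the mean of its probe sets (adjusted p = 0.089). Between the 2D series, the late effect of 2D04 minus that of 2D03 ran from -0.41 to 0.09 and was called for 0 of 7 (0.427% of all genes in either direction; 0 of 7 at an unadjusted p under 0.05, where 10.9% of all genes were). With 1 series in 3D, culture and series cannot be told apart.

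The control arrays, which received no agent at any time from 0 to 48 h, also differed between the series. Each member was higher in 2D04 than in 2D03. For MCM10 the 9 control arrays of 2D03 ran from -1.24 over a median of -0.81 to -0.52, and those of 2D04 from -0.06 over 0.64 to 0.90. MCM5 ran from -0.20 over 0.16 to 0.44 in 2D03 and from 0.69 over 1.05 to 1.22 in 2D04. MCM4 ran from -1.17 over -0.93 to -0.61 in 2D03 and from -0.44 over -0.09 to 0.11 in 2D04. No control array of 2D03 reached the lowest of 2D04 for these genes. The same held for MCM2, MCM3, MCM6 and MCM7, so 7 of 7 were separate, where 6.15% of all genes had every 2D03 array below every 2D04 array. Fitted over times, 2D04 minus 2D03 was 1.37 for MCM10 (SE 0.10, adjusted p = 3e-10), 0.83 for MCM5, 0.80 for MCM4, 0.56 for MCM2, 0.53 for MCM3, 0.47 for MCM7 and 0.45 for MCM6 (SE 0.06, adjusted p = 4e-06). Each series was run once, so these p-values carry the spread between arrays within a series only. The call was 7 of 7 where 25.4% of all genes were called higher and 27.1% lower.

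**Figure D4:**
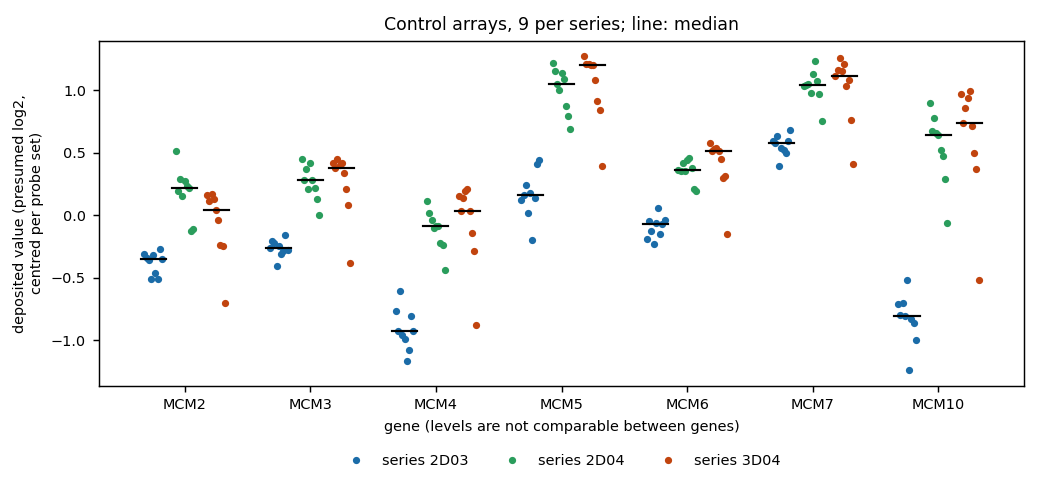
Deposited values (presumed log2, centred per probe set) of the 9 untreated control arrays of each series, 1 point per array in time order from left to right, with the median as a line; levels cannot be set against each other between genes. For each gene all points of 2D03 lie below all points of 2D04, and the lowest 3D04 point is the 48 h array.

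By their medians over all times, the 3D control arrays lay closer to 2D04 than to 2D03. At 48 h alone, each member except MCM10 lay closer to 2D03. There MCM5 read 0.39 in 3D04, 0.44 in 2D03 and 0.69 in 2D04, and MCM10 read -0.52, -1.0 and -0.06. Medians over the 9 arrays of 3D04 and 2D04 were 0.74 and 0.64 for MCM10, 1.2 and 1.05 for MCM5, 1.11 and 1.04 for MCM7, 0.51 and 0.36 for MCM6, 0.38 and 0.28 for MCM3, 0.03 and -0.09 for MCM4, and 0.04 and 0.22 for MCM2, and the arrays of these series overlapped for each gene. Against the mean of both 2D series, 6 of 7 were called higher in 3D04 (25.9% of all genes were), from 0.23 for MCM7 (SE 0.06, adjusted p = 0.005) to 0.76 for MCM10 (SE 0.08, adjusted p = 4.9e-08), while MCM2 differed by 0.03 (SE 0.07, adjusted p = 0.7). Without the 0 h arrays MCM7 missed the threshold (adjusted p = 0.056). These differences were smaller than the 2D04 minus 2D03 difference for each of the 7 genes. They are distances from the mean of the 2D series, however, and not between single series, so the sizes are not like measures. The fit shared its time terms between series, although their controls drifted differently.

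The members shared their pattern closely. After each series' mean was removed, the 21 pairs among the 7 genes correlated with Pearson r between 0.90 and 0.98 over the 96 arrays (median 0.96), and MCM10 correlated at 0.981 with the mean of the scaled MCM2 to MCM7 values. The 10 genes most like that mean were GINS2 (r = 0.987), POLE2 (0.980), DTL (0.974), ATAD2 (0.970), PRIM1 (0.968), CDC45 (0.965), RFC3 (0.963), FEN1 (0.963), CDC6 (0.963) and CCNE2 (0.960), over 96 arrays that share their hybridisations. GINS2 and CDC45 encode partners of the active helicase, POLE2 a subunit of the leading strand polymerase, PRIM1 a primase subunit, RFC3 a clamp loader subunit, FEN1 the flap nuclease of lagging strand maturation, CDC6 a helicase loader and CCNE2 cyclin E2. E2F1, itself an activating E2F factor, ranked 193 outside the members (r = 0.858). Only series means were removed, so the late U0126 arrays, where the members fell most, weigh heavily in each r. The likeness is therefore not separate from the late U0126 difference, and r without those arrays was not computed.

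Genes that load the ring were split. Among 9 genes of origin recognition and loading, 3 were lower in the late 2D window without the block and 6 with it, and 6 in 3D. The shares of all genes called lower there were 5.94%, 12.2% and 18.1%. CDC6 stood at -2.24 (SE 0.36, adjusted p = 2.3e-05) in 2D and -4.01 (SE 0.26, adjusted p = 8.5e-10) in 3D, ORC6 at -1.25 and -1.71, and the loading factor CDT1 at -1.61 and -2.13. ORC3 (0.02 and 0.13) and ORC4 (0.02 and 0.07), subunits of the origin recognition complex like ORC6, did not pass in either culture. Of the 3 measured genes that carry MCM in their name without belonging to the ring, 0 passed in 2D without the block and 1 with it: the MCM-binding protein MCMBP stood at -0.75 (adjusted p = 0.055, and 3e-06 with the block), MCM9 at -0.12 and MCM3AP at -0.01. In 3D, MCMBP was called at -0.37 (SE 0.14, adjusted p = 0.044).

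Genes that switch the ring on and run the fork were mostly lower as well. For each list here, the shares of all genes called lower were 5.94% in 2D without the block, 12.2% with it, and 18.1% in 3D. Of 10 measured genes of helicase activation and firing, 7 were lower in 2D without the block (median -1.10), 10 with it, and 9 in 3D (median -1.72). CDC45 stood at -2.15 (SE 0.27, adjusted p = 2.6e-07) and -3.18, GINS2 at -2.26 and -3.37, and RECQL4 at -0.73 and -0.56. CDC7, the kinase that phosphorylates the ring, stood at -0.52 in 2D (adjusted p = 0.41, and 0.0058 with the block) and at -0.36 in 3D, where it did not pass. WDHD1 stood at -1.35 in 2D (adjusted p = 0.11, and 6.4e-11 with the block) and at -1.98 in 3D. Among 20 genes of fork polymerases, clamp and ligase, 14 were lower in 2D without the block, 20 with it, and 19 in 3D, with RFC4 at -1.02 and -1.78, POLA2 at -1.08 and -1.39 and RFC3 at -1.74 and -2.55. RPA2 and POLD2 stood at -0.52 and -0.57 in 2D, where they passed only with the block (adjusted p = 0.0013 and 4e-05), and were lower in 3D (-0.63 and -0.34). Of 4 nucleotide supply genes, 3 were lower in 2D without the block, 4 with it, and 4 in 3D. RRM2, a ribonucleotide reductase subunit, stood at -1.59 and -3.74, TYMS at -1.39 and -2.44, TK1 at -0.82 and -2.29, and RRM1 at -1.19 (adjusted p = 0.051, and 5.2e-13 with the block) and -1.73.

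The E2F, RB family and cyclin E list held genes that regulate this transcription. Of its 14 measured genes, 4 were lower in 2D without the block (median -0.27), where 5.94% of all genes were. With the block 8 were lower and 1 higher, where 12.2% of all genes were lower and 1498 of 11940 higher. In 3D 8 were lower and 3 higher (median -0.30), where 18.1% of all genes were lower and 20.7% higher. The higher calls in 3D thus lay near the share of all genes. CCNE2 stood at -2.50 (SE 0.58, adjusted p = 0.0024) and -2.99, E2F8 at -1.83 and -3.14, and E2F3 at -0.57 and -0.46. CCNE1 (-0.08 and -0.15) passed in neither culture, and TFDP2, an E2F partner, stood at -0.02 in 2D and at 0.33 (adjusted p = 0.012), higher with U0126, in 3D. E2F1 stood at -0.82 in 2D (adjusted p = 0.071, and 0.00014 with the block) and -0.89 (adjusted p = 4e-05) in 3D.

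**Figure D5:**
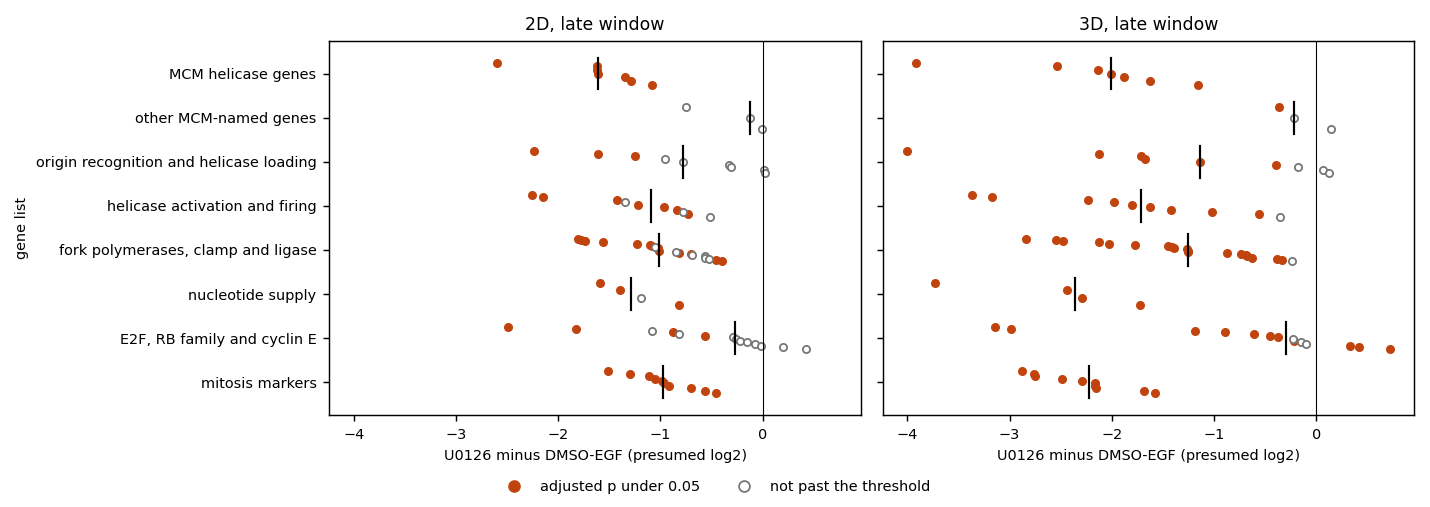
Late-window difference of U0126 from DMSO-EGF (presumed log2) for each measured gene of 8 lists, in 2D (fit without the block) and 3D; filled points have an adjusted p under 0.05, open points do not, and black bars are list medians. MCM helicase genes have medians of -1.61 and -2.01 with 7 of 7 filled in both panels, and the E2F, RB family and cyclin E list has medians of -0.27 and -0.30.

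Mitosis markers were set beside the MCM genes because both mark proliferating cells but belong to different cycle phases. At 12 h the median difference over 10 mitosis markers was -0.05, -0.09 and 0.01 in series 2D03, 2D04 and 3D04, where the MCM medians were -0.51, -0.44 and -0.69. Both 2D03 medians at 12 h rest on a U0126 array of low RNA quality. There the mitosis markers ran from -2.08 to 0.5, against -0.25 to 0.19 in 2D04 and -0.29 to 0.34 in 3D04. At 24 h the mitosis median was 0.06, -0.51 and -2.03, against MCM medians of -1.41, -1.21 and -2.15. By 48 h it had reached -1.61, -1.74 and -2.74, against -1.54, -2.13 and -1.86. In the 2D test at 24 h 0 of 10 mitosis markers were called, where 1.16% of all genes were lower. With the block it was 2 of 10 (5.44% of all genes lower), where 7 of 7 MCM genes were called. At 48 h without the block, 10 of 10 mitosis markers were called (3.84% of all genes lower). Among them CDK1 stood at -1.12 and -2.29 in the late windows of 2D and 3D, AURKB at -1.52 and -2.88, PLK1 at -0.99 and -2.75, CENPF at -1.05 and -1.58 and BUB1 at -0.92 and -1.69. The difference between the lists was not tested.

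Among ERK output genes 4 of 4 (DUSP6, EGR1, FOSL1 and SPRY4) were already lower in the middle window of both cultures, with medians of -2.82 in 2D and -2.69 in 3D. The shares of all genes called lower there were 5.12% in 2D and 8.14% in 3D. In the late window FOSL1 stood at -2.15 and -4.07, SPRY4 at -2.76 and -2.24, EGR1 at -3.31 and -4.27 and DUSP6 at -2.60 and -2.40. Markers of other cell types were also read. Since values are centred, whether a marker is present at all cannot be seen from them. In the late 2D window 0 of 6 luminal, 0 of 5 mesenchymal, 0 of 4 fibroblast and 0 of 3 leukocyte markers passed without the block, with values of -0.52 (SNAI2) to 0.45 (ZEB1). With the block EPCAM (0.40, adjusted p = 0.0052) was higher and KRT18 (-0.33, adjusted p = 0.0057) and SNAI2 (adjusted p = 0.0022) lower. In that fit 1453 of all 11940 genes were called lower and 1498 higher, so these calls were no more frequent than among all genes. In 3D the called ones were KRT8 (0.60), EPCAM (0.50), ZEB1 (0.36) and PTPRC (0.25) higher, and SNAI2 (-0.92) and FN1 (-0.41) lower. These were 6 of 18 markers (33.3%), where 38.9% of all genes were called in either direction, and their part in the MCM result was not tested. On the late U0126 and DMSO-EGF arrays the actin 5′ minus 3′ difference lay between 0.01 and 0.31 in 2D. In 3D it lay between -0.14 and 0.03. All were above the -1.26 and -1.08 of the arrays of low RNA quality. The 0.31, on the U0126 array of 2D03 at 24 h, was the highest of any array. The 3D U0126 arrays, at -0.09 (24 h) and -0.14 (48 h), lay below every other 3D array, the lowest of which read -0.02. Whether RNA quality had a part in the late differences was not tested.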

How the data were processed

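Total RNA of 96 samples was measured on Affymetrix arrays, 1 array per sample. The authors deposited a table of 22930 probe sets, presumed log2 because RMA is named per the submitters' processing notes. Neither the log base, the centring reference nor the build is given in the sources used here. Values ran from -5.0 to 5.7 with array medians near 0, so each probe set had been centred. Names came from the platform annotation: 19415 probe sets had 1 symbol (19290 matched RefSeq by Entrez ID), 125 had several and were left out, 3292 were not listed, and 524 array controls were left out. No low-value filter was used.

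Differences were fitted with limma 3.58.1 in R 4.3.3 (lmFit, eBayes with a variance trend) over 11940 genes. The 2D fit had a mean for each of 31 groups and 33 residual degrees of freedom. The 3D fit used the times of a window as repeats (12 degrees of freedom), the joint fit of the 3 series had 36, and the fit of 27 control arrays, with time as a term, had 17. The label 05h was taken to mean 0.5 h. Over 465 pairs of 2D groups, repeats' deviations from their group means correlated at 0.228 to 0.818 (median 0.635), so the series label pairs the samples, and each 2D comparison was also fitted with the series as a replicate block. No 2 arrays were duplicates: at most 3.34% of values were equal within a pair of the same group.

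Alternatives were array centring, quantile normalization, array weights, no variance trend, a filter on SD, the mean of a gene's probe sets, every probe set tested, the block, each series alone, and single arrays or times left out. Alternatives added once the data had been seen were the 8 and 12 h tests alone, the middle 3D minus 2D difference, U0126 minus control, changes of control arrays by series, and the block combined with arrays left out. The members, gene lists and tests were chosen with earlier results of these data known. Named list genes were the 3 with the smallest and up to 2 with the largest adjusted p in the late 2D window, and DUSP6, and likeness named the 10 genes with the highest r. E2F1 and the marker genes called in 3D were named outside that rule after their values were seen. MCM8, TICRR and E2F7 were not analysed here.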

Additional observations from a re-analysis of the deposited data

Results flagged for a closer look

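The late U0126 effects of 3 genes differed between cultures by the test of the difference itself (joint limma fit, 3D minus 2D): MCM10 by -1.32, MCM5 by -0.93 and MCM4 by -0.54 on the presumed log2 scale. None of the 3 kept its call under quantile normalization, the MCM10 gap lay mostly at 24 h, and 3D culture stands for 1 series.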

How the results depend on the processing

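Counts of members called kept within 1.5 times the reported count except as follows. With the replicate block (series label), the 2D count became 7 at 24 h, 1 at 8 h, 3 at 12 h and 3 in the middle window, and it changed no other count of members by more than that factor. In the late 2D window it raised the count of lower origin genes from 3 to 6 and of lower E2F, RB family and cyclin E genes from 4 to 8. The share of all genes called lower there went from 5.94% to 12.2%. Series 2D03 alone gave 2 in the 2D middle window. At 24 h in 2D the count was 1 with the filter on low SD, 1 with the mean of probe sets and 2 with quantile normalization. In the 3D middle window it was 6 with array weights and 1 with quantile normalization. The middle 3D minus 2D difference gave 1 with array weights (MCM7, 0.49), and the late one 0 with quantile normalization. Leaving out 1 array or time gave 5 to 7 called in the late 2D window, 5 to 7 against control, 0 to 7 at 24 h (7 only with the block), 0 to 7 at 48 h (0 to 2 without the block), 0 to 1 in the 2D middle window and at 8 and 12 h, 7 in the late and 0 to 7 in the middle 3D window, 1 to 4 for the late and 0 to 1 for the middle 3D minus 2D difference, 2 to 7 for U0126 at 48 h against 0 h, 5 to 6 for 3D04 against 2D controls, and 7 for 2D04 against 2D03 controls. No member's called difference reversed under any alternative run. Over all genes, counts called moved more, over the alternatives other than leaving out arrays: 1482 in the late 2D window became 1008 to 3493, 259 at 24 h 98 to 1132, 934 at 48 h 747 to 2169, 866 in the 2D middle window 341 to 2313, 4639 in the late 3D window 2979 to 4742, 1303 for the late 3D minus 2D difference 655 to 1418, 410 for the middle one 405 to 1781, 1497 for U0126 against control 1231 to 3408, 2211 for U0126 at 48 h against 0 h 2119 to 3772, and 613 for control at 48 h against 0 h 560 to 1855. Signal over background could not be read from centred values, so whether a probe set was near background was not tested.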
